A study of Macaca mulatta with 161 samples.

Results

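ZIC2, LIN28A, LIN28B and CD24 are 4 genes used as markers of primed pluripotency, and they are described here in 161 single inner cells of rhesus monkey (Macaca mulatta) blastocysts. They were chosen by name, as 4 rows of a table of 16049 genes. They are followed through 4 stages and against NANOG, a homeobox factor of the epiblast, and SOX17, an HMG-box factor of the primitive endoderm. The embryos were made by fertilising oocytes from hormone-treated females and grown in culture, and the membrane dye PKH26 was used to mark their outer cells. Dissociated cells that carried no dye counted as inner, their polyadenylated RNA was turned into PCR-amplified cDNA, and 1 library per cell was sequenced as paired reads. The groups are 44 cells of the early blastocyst (about embryonic day 5, with a small cavity), 39 of the middle blastocyst (about day 5.5), 52 of the late, fully expanded blastocyst (about day 6) and 26 of the hatching blastocyst (about day 7). No group carries a genetic change or an added agent, and all are cultured embryos. From which embryo, mother or culture a cell came is not in the labels. Each stage is therefore 1 sample without replicates, and no stages were tested against each other.

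ZIC2 is a zinc-finger transcription factor of the ZIC family, known in mouse from the primed epiblast and from neural development. LIN28A and LIN28B are RNA-binding proteins with a cold-shock domain and zinc knuckles, known for blocking the maturation of let-7 microRNAs, which otherwise silence growth genes such as HMGA2, IGF2BP1 and MYC. CD24 is a small, heavily glycosylated protein held at the cell surface by a lipid anchor, and it has been used as a surface marker to sort primed from naive human pluripotent cells. Naive and primed name the pluripotent states that resemble the epiblast before and after implantation. RefSeq lists all 4 as protein-coding rhesus genes. In human, CD24 and NANOG have near-identical pseudogene copies, and how reads of such copies and of antisense transcripts were counted is not given in the sources used here, so the levels of these genes carry that uncertainty.

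Values are FPKM, in which the fragments of a gene are divided by its transcript length and by the depth of the cell, so that levels can be compared between genes. Levels are given as FPKM and as the mean over cells of log2(FPKM + 1) with the SD between cells. A difference is a difference of 2 such means, and a gene is called detected in a cell at an FPKM of at least 1. The reads recovered from the steps between low values had medians of 10.9, 12.4, 10.7 and 11.1 M (mega, per cell) in the early, middle, late and hatching stages, with a range of 2.97 to 28.1 M. ZIC2 at an FPKM of at least 1 stood on at least 75 reads in every cell. A pair of cells stood apart from their stages. Early cell 9 had the fewest reads (6.10 M), the fewest genes at an FPKM of 1 (5873) and the lowest NANOG and LIN28A of the early stage. Late cell 13 had the fewest reads of the late stage (2.97 M) and its highest mean log2 level of trophectoderm markers, 7.77. The title numbers of each stage were cut by hand, with no stated rule, into a lower and an upper range. The ranges were 1 to 28 and 29 to 48 in early cells, and 3 to 29 and 32 to 55 in middle cells. In late cells they were 3 to 22 and 25 to 61, and in hatching cells 1 to 18 and 22 to 47. Early numbers run on without a break at the cut. The labels mark no such ranges and do not say what the numbers stand for. Depth differed between these ranges in the comparisons below, so values are also given within a range. The 7 cells whose titles start with HS (2 middle, 5 late) belong to neither range.

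The markers differed in abundance throughout. LIN28A was at an FPKM of at least 1 in all 161 cells and had the highest median of the 4 in every stage, at 187, 263, 352 and 601 FPKM in the early, middle, late and hatching stages. CD24 medians were 37.0, 5.83, 7.4 and 153 FPKM, and LIN28B medians were 4.74, 13.2, 9.56 and 44.3 FPKM. ZIC2 had a median of 0 in the early and middle stages, 0.013 FPKM in the late stage and 18.5 FPKM in the hatching stage. The hatching stage had the highest mean of every member, and the order of the earlier stages differed from gene to gene.

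**Figure D1:**
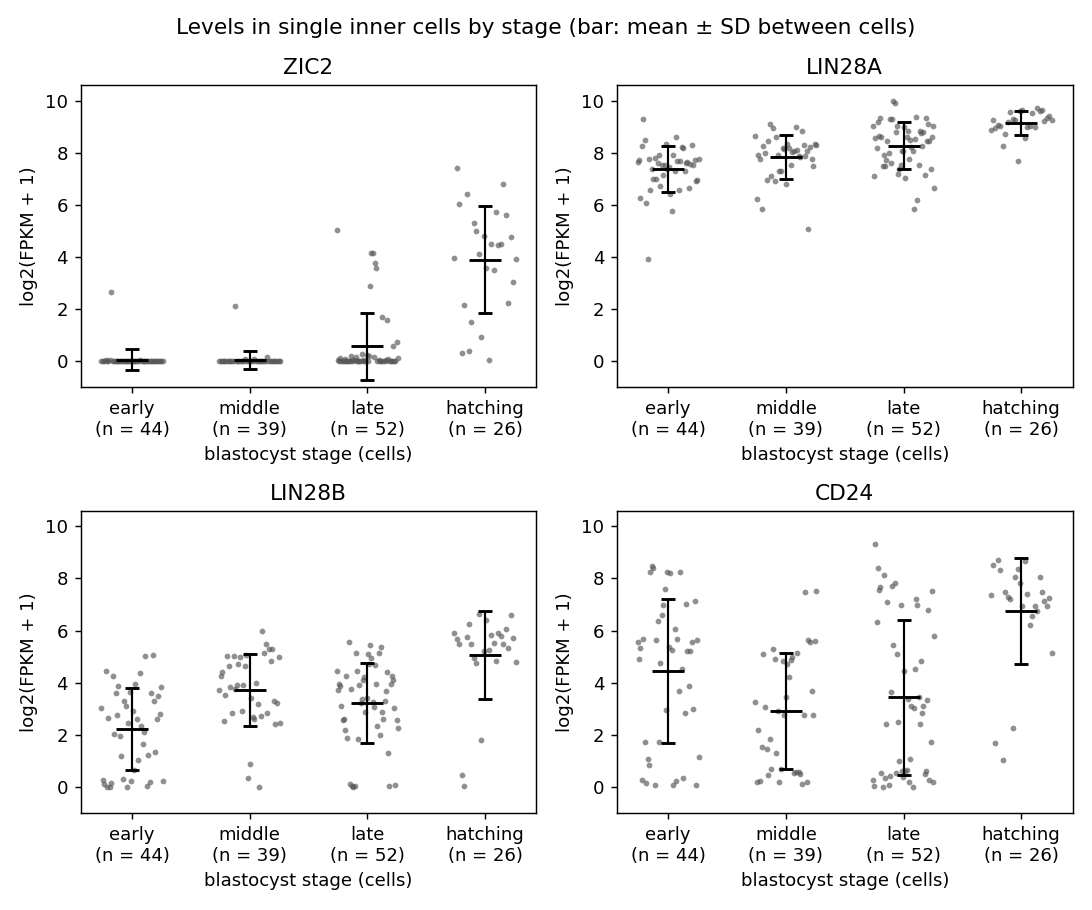
Each point is 1 cell, the horizontal axis is the stage and the vertical axis is log2(FPKM + 1), with the mean and the SD between cells as a bar. ZIC2 lies at the floor in nearly all early and middle cells and at a mean of 3.89 in hatching cells, LIN28A has means of 7.39, 7.83, 8.27 and 9.14, and LIN28B and CD24 spread widely within stages.

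ZIC2 was close to absent before the late stage and detected in most hatching cells. It ran from 0 to 5.24 FPKM in early cells (median 0), from 0 to 3.30 in middle cells (median 0), from 0 to 31.7 in late cells (median 0.013) and from 0.035 to 171 in hatching cells (median 18.5). The detected cells were 1 of 44 early (2.27%, exact 95% interval 0.058% to 12%), 1 of 39 middle (2.56%, 0.065% to 13.5%), 8 of 52 late (15.4%, 6.88% to 28.1%) and 22 of 26 hatching (84.6%, 65.1% to 95.6%). These intervals cover the counting of cells and may be too narrow if cells share embryos. The single early cell is the early cell 9 that stands apart, and without it no cell of that stage was detected. Mean log2 levels were 0.06 ± 0.40, 0.06 ± 0.34, 0.58 ± 1.28 and 3.89 ± 2.05 (SD, n = 44, 39, 52 and 26 cells). The step of 3.31 between hatching and late cells exceeded the spread between cells (pooled SD 1.71), whereas the late, early and middle means lay within it.

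LIN28A was high in every cell and moved in small steps. Its lowest, median and highest values were 14.3, 187 and 631 FPKM in early cells, 32.6, 263 and 544 in middle cells, 57, 352 and 1023.5 in late cells, and 204, 601 and 847 in hatching cells. Mean log2 levels were 7.39 ± 0.88, 7.83 ± 0.84, 8.27 ± 0.89 and 9.14 ± 0.46 in that order of stages. Hatching cells were the most uniform, and all 26 lay above the early median. The difference of 0.87 between hatching and late cells was larger than the pooled SD between cells of 0.71, but it was 1.25 in the upper and 0.40 in the lower range of title numbers. The late and middle stages, and the middle and early stages, lay within their spread of each other.

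LIN28B, the paralogue of LIN28A, sat at a lower level and varied more from cell to cell. It was detected in 32 of 44 early cells (72.7%, 57.2% to 85.0%), 36 of 39 middle cells (92.3%, 79.1% to 98.4%), 46 of 52 late cells (88.5%, 76.6% to 95.6%) and 24 of 26 hatching cells (92.3%, 74.9% to 99.1%). Values reached 32.5 FPKM in early, 62.1 in middle, 46 in late and 98.2 in hatching cells, and each stage held cells below 0.02 FPKM. Mean log2 levels were 2.23 ± 1.57, 3.71 ± 1.38, 3.22 ± 1.53 and 5.08 ± 1.69. No neighbours in the order hatching, middle, late and early were further apart than the SD between cells.

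CD24 was the most variable of the 4 in the early, middle and late stages. It ran from 0.050 to 354 FPKM in early cells, from 0.074 to 183 in middle cells, from 0 to 638 in late cells and from 1.05 to 423 in hatching cells. Detected cells were 36 of 44 early (81.8%, 67.3% to 91.8%), 27 of 39 middle (69.2%, 52.4% to 83%), 33 of 52 late (63.5%, 49% to 76.4%) and 26 of 26 hatching (100%, 86.8% to 100%). Mean log2 levels were 4.45 ± 2.76, 2.92 ± 2.21, 3.44 ± 2.97 and 6.76 ± 2.05. Unlike the other members, its early mean lay above both its middle and its late mean, but no neighbours in the order hatching, early, late and middle differed beyond the SD between cells.

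Between hatching and early cells, all 4 members were higher by more than 1 log2 unit, a size reached in this direction by 11.3% of the 9781 genes with a mean FPKM of at least 1. The difference of mean log2 level was 3.82 for ZIC2, 2.85 for LIN28B, 2.30 for CD24 and 1.75 for LIN28A, against a median of -0.12 over all these genes. All 26 hatching cells lay above the early median for LIN28A, 23 did so for LIN28B and 22 for CD24. All 26 did so for ZIC2 too, but its early median is 0 and the lowest hatching value was 0.035 FPKM. That ZIC2 count therefore covers any value above 0 and does not describe its level. For each gene the ranges of the stages overlapped. The members had been named as primed markers with earlier results of these cells known, so the shared direction is a description. Mean levels of 13 trophectoderm markers also differed between these stages, with medians over cells of 2.96 (range 1.99 to 4.72) in hatching and 3.83 (1.96 to 5.54) in early cells and none of the 13 at 0 in every cell of either stage, and their part in the differences was not tested. Of the 6 cumulus or granulosa markers, 5 were at 0 in every hatching and every early cell, and HAS2, a hyaluronan synthase, was detected in 14 of 26 hatching and 2 of 44 early cells, with a difference of 2.32.

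In the earlier steps the members differed in different directions. Between middle and early cells, LIN28B was higher by 1.49, where 3.06% of genes were higher by more than 1 log2 unit, and 34 of 39 middle cells lay above the early median. This LIN28B difference was 0.69 within the upper and 1.83 within the lower range of title numbers, so it stayed below 1 log2 unit in the upper range. CD24 was lower by 1.53 in middle cells, where 3.61% of genes were lower by that much, and 33 of 39 middle cells lay below the early median. LIN28A differed by 0.45 and ZIC2 by -0.00. Between late and middle cells no member passed 1 log2 unit, with 0.52 for ZIC2, 0.44 for LIN28A, -0.50 for LIN28B and 0.53 for CD24. For each member the largest of the 3 steps over all title numbers was the last. In the lower range of title numbers this did not hold for LIN28A or LIN28B. There, LIN28A had means of 7.37, 7.72, 8.54 and 8.93 in the order of stages, and LIN28B 2.34, 4.16, 2.84 and 4.21. The following values are again over all title numbers. Between hatching and late cells CD24 was higher by 3.31 and ZIC2 by 3.31, the 13th and 14th largest differences of the 9781 genes, LIN28B by 1.86 and LIN28A by 0.87. In this step 7.26% of genes were higher by more than 1 log2 unit, against 3 of the 4 members.

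The ranges of title numbers were cut by hand, so a gap between them describes that split and not a grouping in the labels. Between these ranges, the widest gap within a stage was that of CD24 in early cells. There, the 19 cells of the upper range had a median of 126 FPKM (range 0.17 to 354) and the 25 cells of the lower range a median of 6.78 FPKM (0.050 to 81.6). Mean log2 levels were 6.57 ± 1.92 in the upper and 2.84 ± 2.15 in the lower range. The difference of 3.73 within this 1 stage was larger than the CD24 difference between hatching and early cells. Recovered reads had a median of 14 M in the upper and 8.55 M in the lower early range. Over the 44 early cells CD24 correlated with the log2 of recovered reads with Pearson's r = 0.58 (Spearman's rho 0.63), but within the upper range r was -0.09 and within the lower range 0.23. The mean of the trophectoderm markers did not follow CD24 across early cells (r = 0.05). Within the lower range alone CD24 was higher by 3.39 in hatching than in early cells, and within the upper range by 0.63. The middle minus early difference was 0.0066 in the lower range and -3.51 in the upper range, so the lower CD24 of middle cells rested on the upper range.

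**Figure D2:**
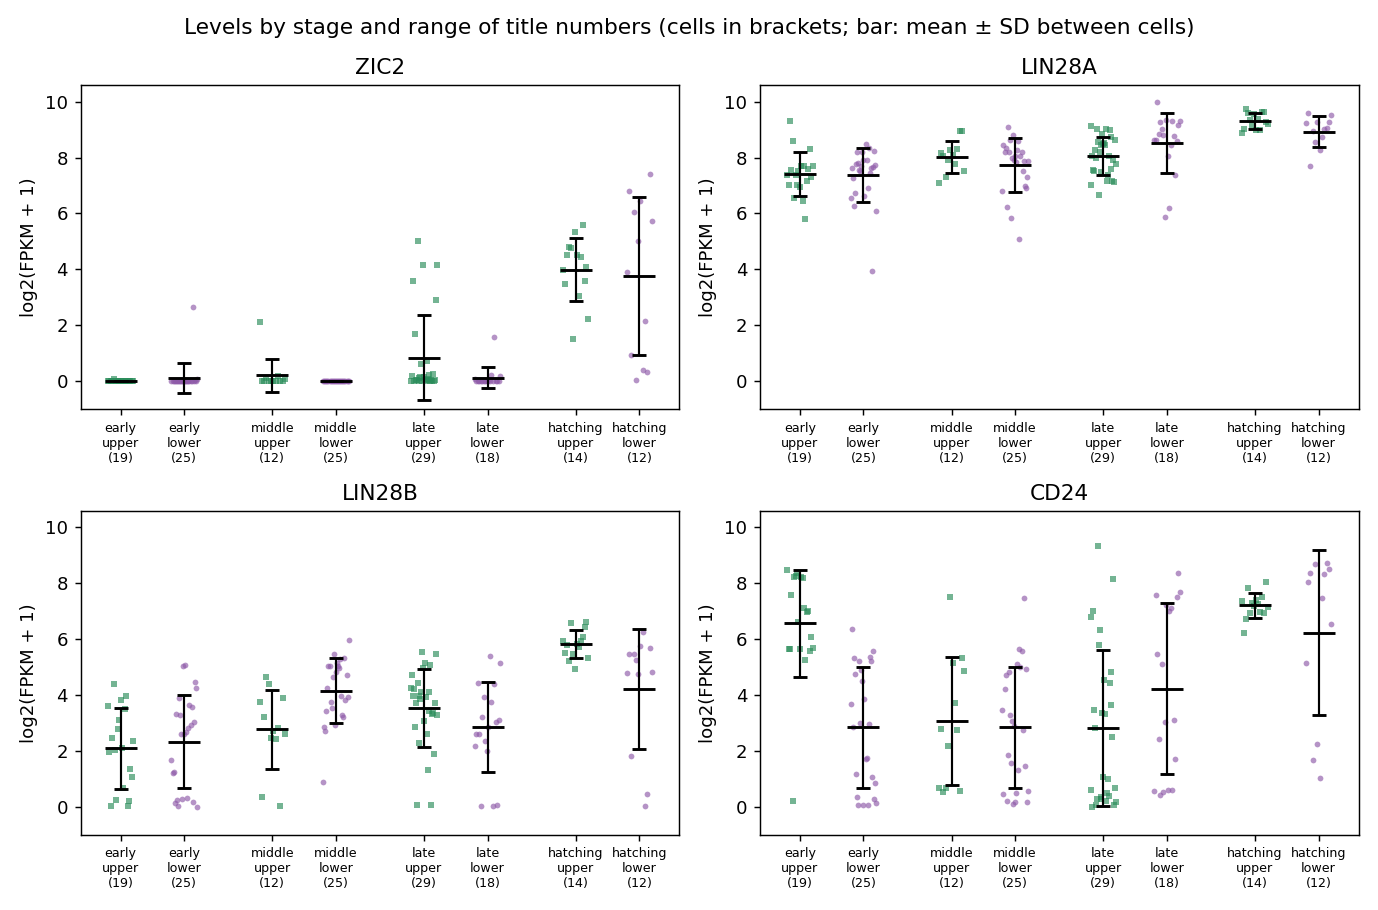
Points are single cells by stage and by range of title numbers (upper as squares, lower as circles), the vertical axis is log2(FPKM + 1), bars give the mean and SD between cells, and the 7 HS cells are not drawn. The upper early cells sit at a CD24 mean of 6.57, far above the lower early cells at 2.84, while ZIC2 and LIN28A differ less between ranges than between hatching and early cells.

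For the other members, as for CD24, both ranges gave the same direction between hatching and early cells. ZIC2 was higher by 3.99 in the upper and 3.66 in the lower range, LIN28A by 1.90 and 1.57, and LIN28B by 3.73 and 1.88. LIN28B differed between the ranges of the middle stage, with means of 2.77 ± 1.42 in the upper (n = 12) and 4.16 ± 1.15 in the lower range (n = 25). Its late minus middle difference accordingly was 0.77 in the upper and -1.32 in the lower range, and its direction between these stages is not settled by the pooled value. ZIC2 in the late stage was detected in 6 of 29 cells of the upper range, in 1 of 18 cells of the lower range and in 1 of the 5 HS cells.

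Cells were next placed by NANOG and SOX17. A cell was put on the NANOG side where its log2(NANOG + 1) exceeded its log2(SOX17 + 1), and otherwise on the SOX17 side. All 44 early and all 39 middle cells lay on the NANOG side. The late stage had 33 cells on the NANOG side and 19 on the SOX17 side, 7 of them within 2 log2 units of the cut, and the hatching stage had 19 and 7 with none that near. These sides are ranges of a value and not cell types. Epiblast markers (12 genes, NANOG among them) had a mean log2 level of 5.33 to 6.43 in single hatching cells of the NANOG side and 0.94 to 2.21 on the SOX17 side. Primitive endoderm markers (13 genes, SOX17 among them) had 0.34 to 2.23 on the hatching NANOG side and 7.11 to 8.39 on the SOX17 side. In late cells the same lists ran from 2.05 to 6.45 and from 0.50 to 4.51 on the NANOG side, and from 0.89 to 2.40 and from 3.46 to 7.09 on the SOX17 side.

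**Figure D3:**
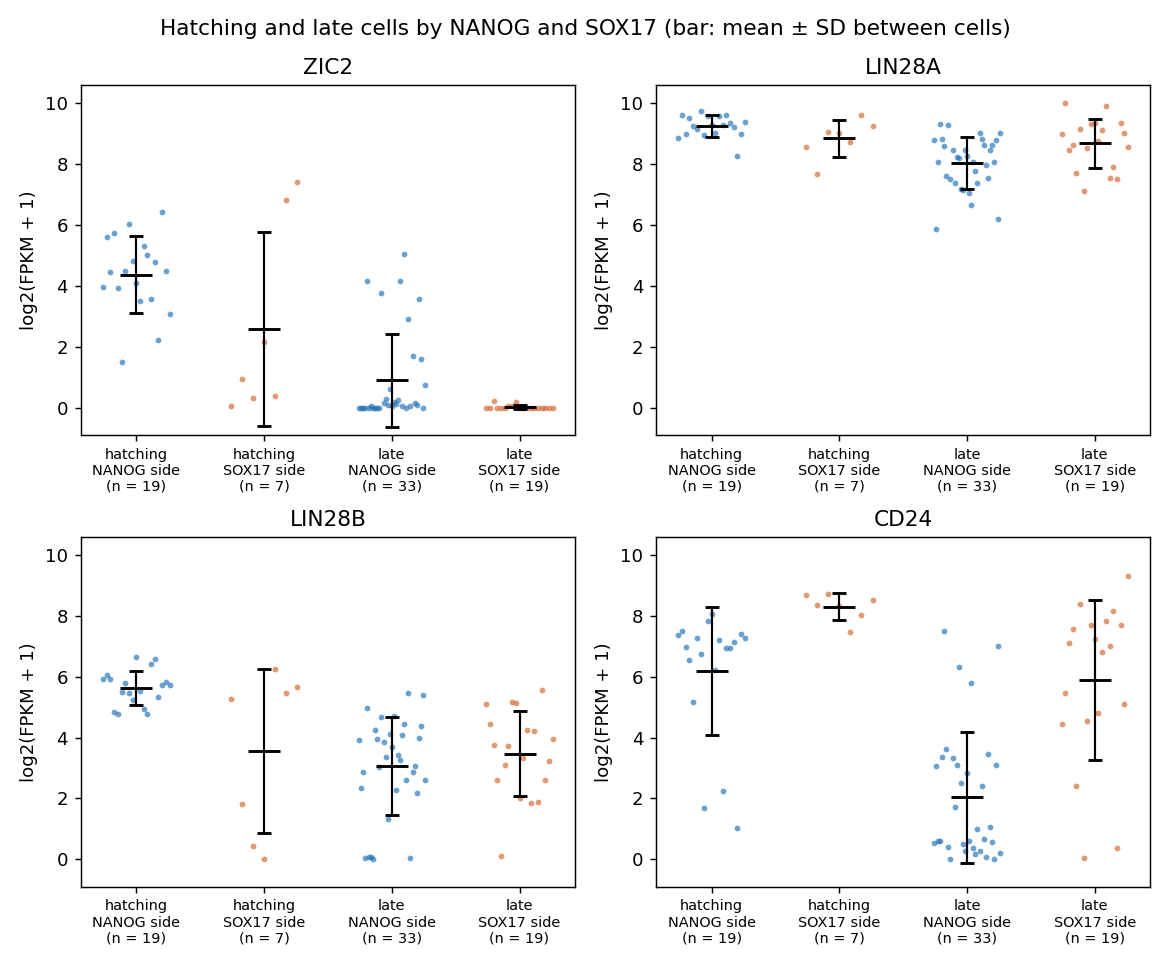
Points are single hatching and late cells on the NANOG side (blue) and the SOX17 side (orange), the vertical axis is log2(FPKM + 1), and bars give the mean and SD between cells. ZIC2 is detected in all 19 hatching cells of the NANOG side and in none of the 19 late cells of the SOX17 side, and CD24 is higher on the SOX17 side in both stages.

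ZIC2 followed the NANOG side in late cells. All 8 late cells in which it was detected were among the 33 of the NANOG side (24.2%, 11.1% to 42.3%), at 2.02 to 31.7 FPKM, and none were among the 19 of the SOX17 side (0%, 0% to 17.6%), where the highest value was 0.16 FPKM. Among the 8, NANOG ran from 8.57 to 10.02 on the log2(FPKM + 1) scale. The mean log2 level of ZIC2 was 0.90 ± 1.53 on the NANOG side and 0.02 ± 0.06 on the SOX17 side, a difference of 0.87 that stayed below 1 log2 unit. In hatching cells ZIC2 was detected in all 19 cells of the NANOG side, at 1.84, 21.6 and 85.4 FPKM (lowest, median, highest), and in 3 of the 7 cells of the SOX17 side. The means were 4.37 ± 1.26 and 2.58 ± 3.18, a difference of 1.78. In that comparison 33.7% of all genes were higher by more than 1 log2 unit on the NANOG side and the median of all genes was 0.45, so a difference of this size was common.

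The 7 hatching cells of the SOX17 side did not share a ZIC2 level. The highest ZIC2 values of all 161 cells belonged to hatching cells 11 and 10 of this side, at 171 and 112 FPKM. Hatching cell 8 had 3.48 FPKM, and the remaining 4 cells had 0.035 to 0.92 FPKM. Cells 11 and 10 were low in NANOG (1.92 and 1.45 on the log2(FPKM + 1) scale) and in SOX2, a core pluripotency factor (0.10 and 0.05). They were high in SOX17 (8.13 and 8.82), GATA4, a zinc-finger factor of the primitive endoderm (7.10 and 6.33), and the apolipoprotein gene APOA1 (14.10 in both). Their LIN28A levels were 9.26 and 9.61 and their CD24 levels 8.51 and 8.04, within the range of the other 5 cells for CD24 and above it for LIN28A. Because of these 2 cells the direction depended on the average: by the log2 of the mean FPKM, ZIC2 was lower on the NANOG side than on the SOX17 side of hatching cells by 0.58, whereas by the median over cells it was higher by 3.56. Within the lower title range, which holds all 7 cells of the SOX17 side, the difference of means was 2.84.

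Over all title numbers LIN28A differed between the sides by less than 1 log2 unit. In late cells it had 8.04 ± 0.85 on the NANOG side and 8.68 ± 0.81 on the SOX17 side, a difference of -0.64, with medians of 293 and 430 FPKM. Within the lower title range the late means were 8.16 and 9.13, a difference of -0.98, and within the upper range 7.99 and 8.22. In hatching cells it had 9.25 ± 0.35 and 8.85 ± 0.62, with medians of 616 and 520 FPKM. The hatching difference of 0.40 was close to the median of all genes, and with median-of-ratios scaling, in which that median is 0.16, it was -0.20. LIN28A thus had no settled direction between the sides of the hatching stage.

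LIN28B differed between the late sides by less than the spread between cells and was uneven on the SOX17 side of the hatching stage. Late cells had 3.07 ± 1.6 on the NANOG side and 3.47 ± 1.41 on the SOX17 side, a difference of -0.40. It was 0.14 when the sides were set by clustering. Within the lower title range the late means were 2.44 and 3.47, a difference of -1.03, and within the upper range 3.28 and 4.13. The late HS cells went the other way, with 4.46 (n = 2) and 1.52 (n = 3). All 19 hatching cells of the NANOG side lay between 26.2 and 98.2 FPKM, with a mean of 5.63 ± 0.57. The 7 hatching cells of the SOX17 side fell into 4 cells at 37.4 to 75.5 FPKM and 3 cells at 0.017, 0.37 and 2.53 FPKM, with a mean of 3.57 ± 2.69. The difference between the sides was 2.07, but 0.46 by the median over cells. In this comparison 33.7% of all genes were higher by more than 1 log2 unit on the NANOG side, and the median of all genes was 0.45. The 3 low cells had LIN28A at 204 to 529 FPKM, so its paralogue was still detected where LIN28B was low. All 3 lay below the hatching LIN28A median of 601 FPKM, and 204 FPKM was the lowest LIN28A value of that stage.

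CD24 was lower where NANOG was higher. In late cells its lowest, median and highest values were 0, 0.99 and 182 FPKM on the NANOG side and 0.038, 127 and 638 FPKM on the SOX17 side. On the NANOG side 17 of 33 cells were below an FPKM of 1 and 2 were at 100 or above, while on the SOX17 side 2 of 19 were below 1 and 11 were at 100 or above. Mean log2 levels were 2.03 ± 2.14 and 5.90 ± 2.63. The difference of -3.86 was the 20th lowest of the 9781 genes, of which 7.69% were lower by more than 1 log2 unit on the NANOG side. It was -3.23 in the upper and -4.44 in the lower range of title numbers.

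In hatching cells CD24 was again lower on the NANOG side, with 1.05, 124 and 266 FPKM (lowest, median, highest) on the NANOG side and 176, 329 and 423 FPKM on the SOX17 side. The means were 6.19 ± 2.12 and 8.30 ± 0.44, and all 19 cells of the NANOG side lay below the median of the SOX17 side. The difference was -2.11, in a comparison in which 14.2% of genes were lower by more than 1 log2 unit on the NANOG side. Within the NANOG side the 14 cells of the upper title range had 7.21 ± 0.45 and the 5 cells of the lower range 3.33 ± 2.39. All 7 cells of the SOX17 side belong to the lower range, in which the difference between the sides was -4.97. Hatching cells of the upper range had a median of 13.5 M recovered reads and 7020 genes at an FPKM of 1, and those of the lower range 8.75 M and 6031.5, and the part of depth in these values was not tested. With the cells split instead by SOX17 at an FPKM of 1 the difference was -0.70.

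**Figure D4:**
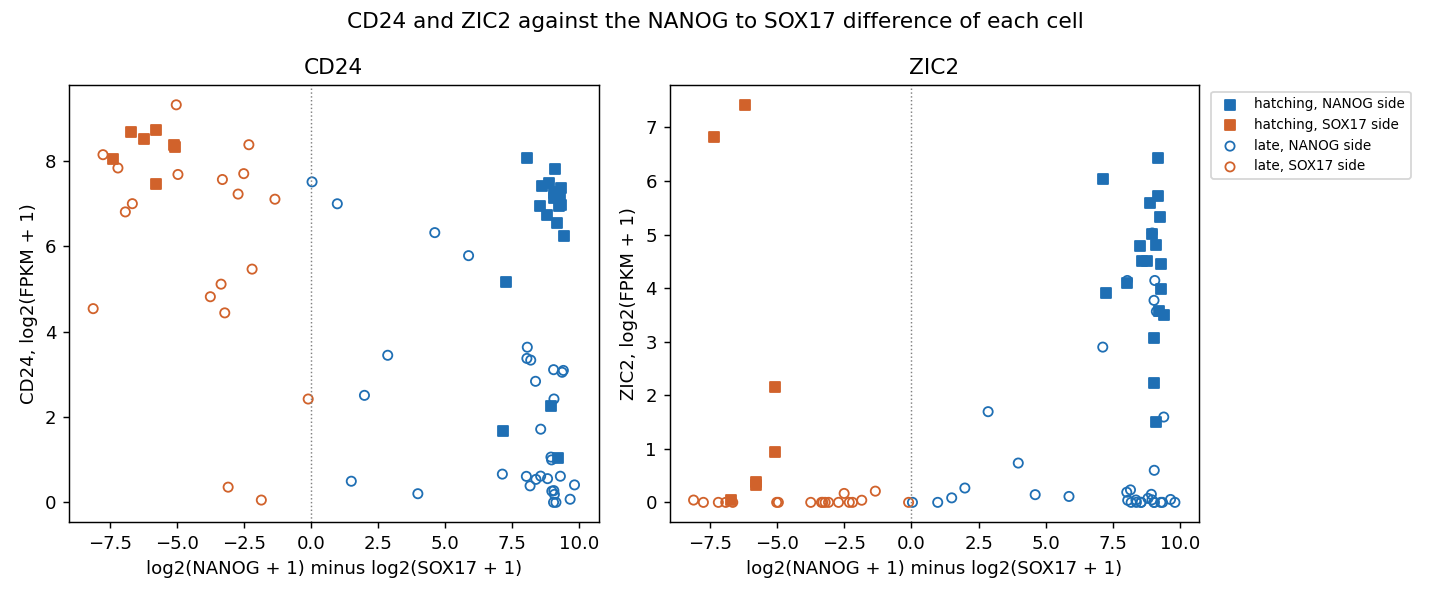
Each point is 1 hatching cell (filled squares) or late cell (open circles), the horizontal axis is log2(NANOG + 1) minus log2(SOX17 + 1), the vertical axis is log2(FPKM + 1) of CD24 or ZIC2, and colour gives the side. Late CD24 has a mean of 5.90 on the SOX17 side and 2.03 on the NANOG side, hatching cells of the NANOG side sit at a CD24 mean of 6.19, and 2 hatching cells of the SOX17 side hold the highest ZIC2.

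Correlations across the cells of 1 stage, which may share embryos, are given as descriptions. Over the 52 late cells CD24 had Pearson's r = -0.75 with NANOG (Spearman's rho -0.74) and 0.62 with SOX17 (rho 0.56). Over the 26 hatching cells the values were -0.48 (rho -0.64) and 0.40 (rho 0.46), and over the 39 middle cells, which all lie on the NANOG side, r with NANOG was -0.20. Over the 44 early cells, also all on the NANOG side, CD24 had r = 0.07 with NANOG (rho -0.06), with 0.26 in the upper and 0.32 in the lower title range, so the negative relation was that of the late and hatching stages. ZIC2 had r = 0.37 with NANOG over late cells (rho 0.48) and 0.36 over hatching cells (rho 0.24). On the NANOG side alone r was 0.24 in late and 0.11 in hatching cells. Over middle cells r was -0.01. Over early cells, where ZIC2 was detected in cell 9 alone, it was -0.69 (rho -0.38). LIN28A had 0.57 with NANOG over early cells, where the rank correlation was 0.30. The remaining correlations of LIN28A with NANOG or SOX17 were 0.40 or less in size within each stage. LIN28B with NANOG had 0.52 over hatching cells, but a rank correlation of 0.12.

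With the SOX17 side set aside, the difference between hatching and late cells over all title numbers was larger for every member. For ZIC2 the gain was small, from 3.31 to 3.47. On the NANOG side alone ZIC2 was higher by 3.47, LIN28A by 1.21, LIN28B by 2.56 and CD24 by 4.15, so that all 4 passed 1 log2 unit, beside 9.41% of the genes. For each member all 19 hatching cells lay above the median of the 33 late cells. The CD24 difference was the 11th largest of the 9781 genes. Within the upper title range CD24 was higher by 5.38 (n = 14 and 20 cells), and within the lower range by 0.83 (n = 5 and 11 cells), so this value rested on the upper range. LIN28A was higher by 1.33 in the upper and by 0.90 in the lower range, below 1 log2 unit in the lower. ZIC2 was higher by 2.78 in the upper and 5.27 in the lower range. Setting the SOX17 side aside made the difference smaller for ZIC2 in the upper and for CD24 in the lower range. With both sides, upper-range ZIC2 means were 3.99 in hatching and 0.84 in late cells, and lower-range CD24 means were 6.23 and 4.23.

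On the SOX17 side alone, 7 hatching and 19 late cells, the members parted. ZIC2 was higher in hatching cells by 2.56, and by 0.94 when the median over cells is taken. Hatching cells 11 and 10 stood at 171 and 112 FPKM, and the others of this side at 0.035 to 3.48 FPKM. CD24 was higher by 2.41, with 7 of 7 hatching cells above the late median. The CD24 difference was 1.36 by the median over cells and also 1.36 within the lower title range, to which all 7 hatching cells belong. In this comparison 11.3% of genes were higher by more than 1 log2 unit. LIN28A differed by 0.17 and LIN28B by 0.10, less than the spread between cells. Whether a member's difference between stages was larger on one side than on the other was not tested, since each side of a stage is 1 sample.

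Joint detection differed between stages, and ZIC2 was the member most often missing. All 4 members were detected together in 0 of 44 early cells (interval 0% to 8.04%), 0 of 39 middle cells (0% to 9.03%), 4 of 52 late cells (7.69%, 2.14% to 18.5%) and 21 of 26 hatching cells (80.8%, 60.6% to 93.4%). ZIC2 was the single member missing in 26 early, 25 middle and 26 late cells. The 4 late cells with all members lay on the NANOG side. In the hatching stage all 19 cells of the NANOG side held every member, and 2 of the 7 cells of the SOX17 side did. Of the 8 late cells with ZIC2, 4 had CD24 at an FPKM of at least 1, at 7.53 to 9.91 FPKM, and CD24 was detected in 16 of all 33 late cells of the NANOG side, to which the 8 belong. Across all 161 cells the members had r of 0.45 for ZIC2 and LIN28B, 0.41 for ZIC2 and LIN28A, and 0.31 for LIN28A and LIN28B. CD24 had at most 0.21 with any other. By rank of r among 9776 genes, ZIC2 was 9th for LIN28B and 56th for LIN28A. Seen from ZIC2, LIN28B was 184th and LIN28A 267th. The closest member to CD24 was LIN28A, at rank 538.

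**Figure D5:**
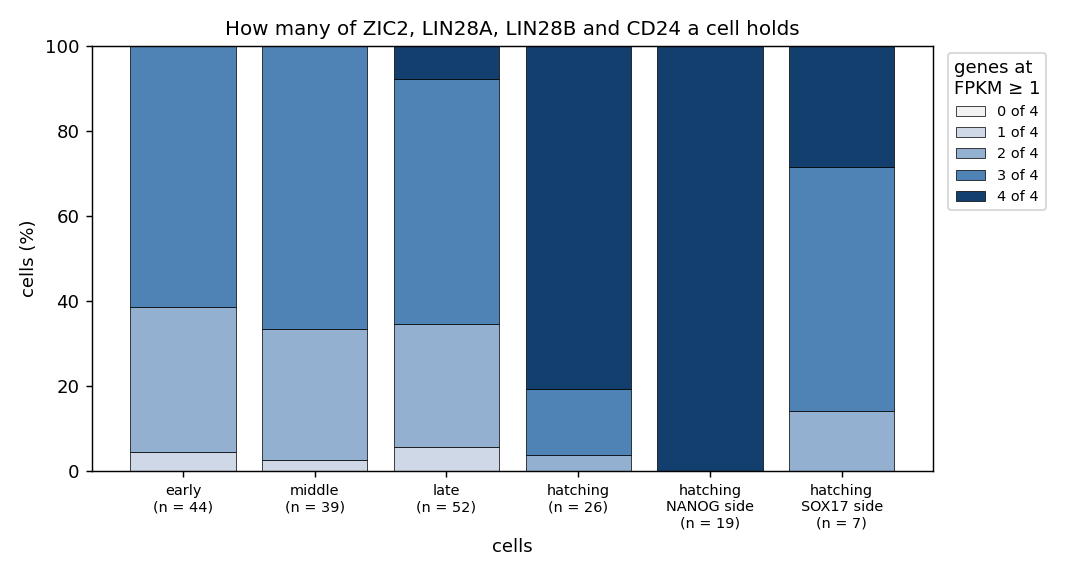
Bars split the cells of each stage, and of the hatching sides, by how many of the 4 genes reach an FPKM of 1, as a percentage of cells. Cells with all 4 make up 0% of early and middle cells, 7.69% of late cells, 80.8% of hatching cells and 100% of the hatching NANOG side.

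Genes with the most similar profile to each member over all 161 cells were ranked by Pearson's r of log2(FPKM + 1) among 9776 genes. For ZIC2 they were PTPLA, a dehydratase of very long chain fatty acid synthesis (r = 0.85), CRABP2, a retinoic acid binding protein (0.76), IGFBP4, an IGF-binding protein (0.76), C1orf21 (0.73) and LAMB2, a laminin chain (0.73). Within the late stage these had r of 0.50 to 0.66 and within the hatching stage 0.34 to 0.72, all below the values over all cells. PTPLA and CRABP2 were also high in the hatching cells of the SOX17 side that held ZIC2, at 7.14 and 9.41 in cell 11 and 6.75 and 8.86 in cell 10 on the log2 scale, whereas IGFBP4 was at 0.62 and 0.17 there, against a mean of 6.86 ± 1.16 on the hatching NANOG side. For LIN28A the closest were CNN3, an actin-binding calponin (0.54), SPARC, a matrix glycoprotein (0.53), PPP2R1B, a phosphatase scaffold subunit (0.52), PTPLA (0.51) and SAE1, a SUMO-activating subunit (0.51). CNN3 and SPARC had negative r with LIN28A within the hatching stage, at -0.45 and -0.50. For LIN28B they were IGFBP4, CCDC28B and GLB1L3 (0.48 each) and PTPLA and C1orf21 (0.47 each). For CD24 they were MPC1, a mitochondrial pyruvate carrier subunit (0.48), BAIAP2L1, an actin regulator (0.47), CLIC1, a chloride intracellular channel protein (0.45), FN1, fibronectin (0.44), and CD63, a tetraspanin (0.44). PTPLA appeared for 3 of the 4 members and CD24 shared none of its 5 genes with the others. In the order of stages, PTPLA had mean log2 levels of 0.10, 0.11, 0.72 and 5.18. Within those stages its r was -0.05, 0.07, 0.23 and 0.70 with LIN28A, and 0.03, -0.12, 0.26 and 0.50 with LIN28B. IGFBP4, the closest to LIN28B, had -0.26, -0.30, 0.24 and 0.59 with it.

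The genes around LIN28 in the let-7 pathway were less uniform than LIN28A and LIN28B. Besides these members, 21 listed genes of let-7 processing and its known targets had a mean FPKM of at least 1, and 6 were higher and 1 was lower by more than 1 log2 unit in hatching than in early cells, with a median of 0.61. Over all genes 11.3% were higher and 16.2% lower. MYC, a growth regulator, was higher by 2.34, ARID3B, a DNA-binding factor, by 2.22, and CCND1, cyclin D1, by 1.69, whereas the E2F family repressor E2F6 was lower by 1.88. MYC differed between the sides, with means of 6.49 on the NANOG side and 0.68 on the SOX17 side of hatching cells. The classic target HMGA2 had a mean log2 level of 0 in early, middle and hatching cells and 0.01 in late cells, and reached an FPKM of 1 in no cell, while its relative HMGA1 stood at 8.73 in hatching and 8.10 in early cells. IGF2BP1, an RNA-binding let-7 target, had 5.48 ± 0.50 in hatching and 4.64 ± 0.76 in early cells. No let-7 RNA was analysed here.

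ZIC1 and ZIC4, relatives of ZIC2, had mean log2 levels of at most 0.20 in every stage. Among listed partners of ZIC factors, OTX2, a homeobox partner in the mouse primed epiblast, differed by -3.52 between hatching and early cells, MBD3, a chromatin protein, by -1.04, and GRHL2, an epithelial factor, by -0.64.

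Other surface marker genes differed in both directions. Of 14 other listed surface genes, 4 were higher and 4 lower by more than 1 log2 unit in hatching than in early cells, and their median difference was 0.06, beside 11.3% higher and 16.2% lower of all genes. BST2, an interferon-linked membrane protein, was higher by 2.73, ALPL, an alkaline phosphatase, by 2.51 and THY1, a lipid-anchored glycoprotein, by 1.54, and CDH1, E-cadherin, was lower by 2.36. THY1 was lowest where CD24 was highest: on the SOX17 side of hatching cells its mean was 0.20, against 3.27 on the NANOG side. SIGLEC10, a receptor for CD24 on immune cells, was detected in 0 of 26 hatching and 3 of 44 early cells.

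Beside other genes of the same states, the members stood with the majority of the primed list. Of 21 other listed primed genes, 16 were higher and 1 was lower by more than 1 log2 unit in hatching than in early cells, with a median of 1.54. NODAL, a TGF-beta family ligand, was higher by 4.14 and TERF1, a telomere-binding protein, by 2.99, and OTX2 was the one lower gene. Of 19 naive genes, 2 were higher and 8 lower, with a median of -0.87. Over all genes 11.3% were higher and 16.2% lower, so the share of higher naive genes was near the background. The orphan nuclear receptor ESRRB was lower by 5.21, the Krüppel-like factor KLF4 by 4.03, the homeobox gene ARGFX by 3.29 and the T-box factor TBX3 by 2.77. TBX3 was nonetheless high where CD24 was highest, with a mean of 6.19 on the SOX17 side and 0.23 on the NANOG side of hatching cells. These lists, too, were chosen with earlier results of these cells known.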

How the data were processed

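The authors deposited 1 table of FPKM values for 16049 genes and 161 cells, whose columns matched the cell titles. Per the submitters' processing notes, HTSeq, TopHat2 2.1.0, DESeq2 and FastQC were used, with no roles stated. The build and gene models are not given in the sources. Low FPKM values came in steps, from which whole reads were recovered for 13711 of the 13857 genes seen in 2 or more cells (all values whole within 0.0036 reads). These genes hold 83.0% to 93.1% of a cell's FPKM, so the reads are a lower bound on depth, and reads from PCR without molecular identifiers are not independent molecules. No 2 cells had identical values.

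Levels are mean log2(FPKM + 1), a pseudocount of 1 that understates differences of low genes. With 1 sample per stage no test was run, and no p-value is given. Intervals are exact Clopper-Pearson 95% intervals. The background share counts genes past 1 log2 unit among 9781 with a mean FPKM of at least 1. Clustering, used as an alternative, was Ward's method on 10 principal components of 1000 variable genes without the members and lists. The genes named are the 4 members, NANOG and SOX17, the 5 genes with the highest r to each member, and up to 4 genes per list with the largest hatching minus early difference. HMGA1, HMGA2, IGF2BP1, ZIC1, ZIC4, SIGLEC10, and SOX2, GATA4 and APOA1 in single cells, were added after their values were seen. The members and lists were chosen with earlier results of these data known. 1 listed gene is not reported here. List genes with no row under their symbol were not analysed here, among them ZIC5, ZCCHC11 and AGO2. The difference step was tested on simulated data. Software was matplotlib 3.10.9, scikit-learn 1.9.0, scipy 1.17.1, numpy 2.4.6, pandas 2.3.3 and Python 3.11.15.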

Additional observations from a re-analysis of the deposited data

How the results depend on the processing

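Each of the 32 differences (8 comparisons of 4 members) was recomputed under other pseudocounts, scalings, averages, cell sets and sides, 360 values in all. Of these, 346 moved by less than the SD between cells, 12 moved by more and 2 differences of more than 1 log2 unit turned in direction. Turns of smaller differences were not counted as such. The SD is wide, so the 346 include LIN28B for late minus middle, from -0.50 to 0.77. They also include CD24 for hatching minus early, from 2.30 to 0.63. No paired analysis was possible because each stage is 1 sample, replicate numbers only name cells and no test was run.

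The size of the ZIC2 differences depends on the pseudocount, as its level is near 0 before the hatching stage. With pseudocounts of 0.1 and 10 the values were 6.68 and 1.54 for hatching minus early, 5.48 and 1.38 for hatching minus late, and 5.54 and 1.41 for hatching minus late on the NANOG side. By the log2 of the mean FPKM, ZIC2 differed between the NANOG and SOX17 sides by 2.0 in late and by -0.58 in hatching cells, which is a turn in direction, and between hatching and late cells of the SOX17 side by 5.37. In the lower title range alone, CD24 differed by 0.0066 for middle minus early (turned), by 0.83 for hatching minus late on the NANOG side and by -4.97 between the hatching sides, and ZIC2 by 5.27 for hatching minus late on the NANOG side. Median-of-ratios scaling gave -0.20 for LIN28A between the hatching sides. The causes of these shifts were not tested. The upper range has no hatching cell on the SOX17 side, so it gives no value there.

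Shares of detected cells depend on the threshold. At any value above 0, LIN28B was found in 97.7% of early, 100% of middle, 100% of late and 100% of hatching cells, CD24 in 100% of early, 100% of middle and 96.2% of late cells, and ZIC2 in 50.0% of late and 100% of hatching cells. All 4 members were then above 0 in 3 early, 4 middle and 25 late cells. At an FPKM of at least 5, LIN28B was found in 50.0% of early and 75% of late cells, ZIC2 in 0% of middle cells, and all 4 members in 2 late cells. In the hatching stage all 4 members then reached 5 FPKM in 16 of 26 cells. These were 14 of the 19 cells of the NANOG side and 2 of the 7 cells of the SOX17 side. Leaving out early cell 9 and late cell 13, an alternative chosen after seeing the data, moved no difference by more than the SD between cells. The comparison of hatching with late cells on the SOX17 side was also added after seeing the data. Counting the background over all genes above 0 in any cell kept each count of genes past 1 log2 unit within 1.5 times.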
